A study of Mus musculus with 2 samples.

Results

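The proliferation and cell cycle genes measured here were 42 genes of 55536 in the annotation. They were chosen by name with earlier results of these data known, and each symbol matched 1 gene of the deposited tables. They were followed in the nuclear RNA of mouse bone-marrow-derived macrophages, at gene level and by transcript. The 42 genes comprised 2 proliferation markers, 5 D-type cyclins and their kinases, 4 E- and A-type cyclins with Cdk2, 4 inhibitors of cyclin-dependent kinases, 5 genes of the E2F and retinoblastoma family, 7 genes of replication licensing and the replication clamp, 3 genes of deoxynucleotide synthesis, 6 mitotic entry kinases and B-type cyclins, and 6 spindle and checkpoint genes.

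The macrophages were primary cells of strain C57BL/6J, and both libraries came from cells given the same treatment. The cells received 100 ng/ml lipid A, the membrane anchor of bacterial endotoxin, for 12 hours. The lipid A was then washed out for 12 hours, and the cells were given 100 ng/ml of it again for 50 minutes. RNA of the fraction called nucleoplasmic in one label and nuclear in another was depleted of ribosomal RNA and sequenced as total RNA. The 2 libraries were biological replicates 1 and 2 of a single group, made from 500 ng and 1 µg of RNA. Unstimulated cells and whole-cell or cytoplasmic RNA were not analysed here, so the levels below describe 1 condition and 1 compartment. The 2 replicates carry an identical donor entry, and the labels do not say whether their animals or cultures were separate, so the spread between them may be technical. Sex and age were not collected.

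Entry into the cell cycle is set by D-type cyclins with Cdk4 and Cdk6, which phosphorylate retinoblastoma proteins and so free E2F factors to switch on genes of DNA replication. Cyclins E and A with Cdk2 drive S phase, and cyclin B with Cdk1 drives mitosis, when the spindle and its checkpoint genes act. Most S phase and mitotic genes are transcribed periodically in dividing cells and repressed in quiescent ones, and macrophages grown from bone marrow divide in response to their growth factor and slow or stop dividing after endotoxin.

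The promoters of several of these genes are shown because they carry the short sequence motifs by which cell cycle genes are usually grouped. Windows of 250 bases before to 50 bases after the annotated start were taken from RefSeq on GRCm38.p6, and 35 of the 42 genes had at least 1. For the 6 of them with more than 1 window, a motif was counted for the gene when any window held it. The motifs searched, on both strands, were the CCAAT box, the cell cycle homology element, written TTTGAA or TTTAAA, and E2F-type motifs, written TTTCCCGC, TTTGGCGC or TTTCGCGC. Capitals mark every match on either strand, so a match on the opposite strand reads as its reverse complement, and each window is given on the strand of its gene. The 5 windows shown were chosen after their matches were seen.
Mki67 promoter, chr7:135716330-135716629, minus strand: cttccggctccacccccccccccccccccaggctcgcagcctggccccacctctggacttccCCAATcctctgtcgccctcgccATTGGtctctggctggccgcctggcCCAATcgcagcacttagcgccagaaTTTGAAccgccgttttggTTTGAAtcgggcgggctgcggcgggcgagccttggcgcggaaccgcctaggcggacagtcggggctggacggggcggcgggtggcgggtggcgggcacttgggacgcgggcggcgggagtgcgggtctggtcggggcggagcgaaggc
Top2a promoter, chr11:99024140-99024439, minus strand: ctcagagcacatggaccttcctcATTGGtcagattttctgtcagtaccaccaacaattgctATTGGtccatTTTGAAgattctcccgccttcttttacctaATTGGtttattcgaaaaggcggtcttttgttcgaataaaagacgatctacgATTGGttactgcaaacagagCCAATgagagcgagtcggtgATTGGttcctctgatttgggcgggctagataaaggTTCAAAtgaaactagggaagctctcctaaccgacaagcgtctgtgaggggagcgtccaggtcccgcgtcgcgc
Cdk1 promoter, chr10:69352863-69353162, minus strand: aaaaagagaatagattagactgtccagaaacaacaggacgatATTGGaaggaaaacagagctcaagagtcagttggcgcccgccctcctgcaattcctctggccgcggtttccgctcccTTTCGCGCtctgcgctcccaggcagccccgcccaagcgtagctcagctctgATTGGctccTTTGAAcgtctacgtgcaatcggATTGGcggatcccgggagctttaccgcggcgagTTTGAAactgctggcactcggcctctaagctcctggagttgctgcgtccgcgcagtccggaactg
Ccnb2 promoter, chr9:70421505-70421804, minus strand: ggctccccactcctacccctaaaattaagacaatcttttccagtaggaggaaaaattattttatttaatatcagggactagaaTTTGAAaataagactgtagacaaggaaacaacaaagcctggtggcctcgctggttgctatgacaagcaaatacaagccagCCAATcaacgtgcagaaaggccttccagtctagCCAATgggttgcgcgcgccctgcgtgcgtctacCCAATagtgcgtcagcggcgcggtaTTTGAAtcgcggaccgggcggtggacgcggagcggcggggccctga
Mcm6 promoter, chr1:128359656-128359955, minus strand: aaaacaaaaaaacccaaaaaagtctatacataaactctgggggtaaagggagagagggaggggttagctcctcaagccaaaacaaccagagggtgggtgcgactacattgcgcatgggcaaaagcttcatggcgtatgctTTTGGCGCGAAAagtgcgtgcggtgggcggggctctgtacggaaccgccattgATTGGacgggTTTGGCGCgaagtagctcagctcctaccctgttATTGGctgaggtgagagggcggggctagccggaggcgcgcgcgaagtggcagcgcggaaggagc
The Mki67 window held 3 CCAAT boxes and 2 copies of TTTGAA, and the Top2a window held 6 CCAAT boxes and 2 copies of TTTGAA. Cdk1 and Ccnb2 each held 3 CCAAT boxes and 2 copies of TTTGAA, and Cdk1 also held 1 E2F-type motif. The Mcm6 window held 2 CCAAT boxes and 3 E2F-type matches, of which a TTTGGCGC and a TTTCGCGC overlap on opposite strands.

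Over these 35 genes the motifs were spread unevenly over the roles. The CCAAT box was found in 27 of the 35 genes (77.1%) and in 41.1% of the 27025 genes of the promoter table. TTTGAA or TTTAAA was found in 19 of the 35 (54.3%) and in 30.6% of all genes. Any of the 3 E2F-type motifs was found in 9 of the 35 (25.7%) and in 2.12% of all genes. All 5 mitotic entry genes with a window, Cdk1, Ccnb1, Ccnb2, Aurka and Plk1, held both a CCAAT box and TTTGAA or TTTAAA. The E2F-type motifs were in Mcm3, Mcm5, Mcm6 and Mcm7 of 6 licensing and clamp genes, in E2f2, E2f3 and Rbl1 of the E2F family, and in Cdk2 and Cdk1. No E2F-type match was found in the windows of Mki67 and Top2a, of the 4 kinase inhibitors or of the 6 spindle genes. A match is a description of these letters and says nothing of a factor's binding.

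The libraries held 20612078 (replicate 1) and 22772081 (replicate 2) estimated counts in genes, so that 3 counts stood for 0.146 and 0.132 CPM (the count scaled to the library's total). The 10 macrophage markers were all present, the lowest at 26.3 TPM (a level scaled by transcript length and library depth), and 9 of them were above the 90 percentile of protein-coding genes. Of 47 markers of other bone marrow and blood cells, 12 were at 0 in both libraries at gene level and the highest averaged 0.67 TPM. When reads were assigned through an index of transcripts, the highest by mean was the T cell marker Cd3d, at 2.88 and 0.62 TPM in replicates 1 and 2. Cd3d had 332 and 125 counts there, against 1 and 0 at gene level, and the reason was not tested. Kit, a receptor of dividing progenitor cells, had 0.40 and 0.72 TPM in replicates 1 and 2. The counts of the 2 libraries differed far beyond sampling noise (chi-square of 100.7 for each degree of freedom, 8641 genes), so they were kept as 2 samples.

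In the nuclear RNA of these macrophages most cell cycle genes were low beside other protein-coding genes with counts, and a few were not. The median of the 42 genes was 1.33 TPM, against a median of 3.59 TPM over the 12140 protein-coding genes with at least 10 counts over both libraries. At least 10 counts over the libraries were reached by 41 of the 42, all but Cdc20. Above that protein-coding median stood 10 of the 42, where 50% of protein-coding genes lie by construction. Without the minimum of 10 counts, nearly all of the 42 stood above the median, as given at the end. By mean level, Cdkn1a, Mki67 and Cdk6 stood above the 90 percentile of the 12140 genes, 28.7 TPM, which 10% of them pass. Cdk6 did so narrowly, with a mean of 29.1 TPM, and was below it in replicate 1 (20.97 TPM) and above it in replicate 2 (37.1 TPM). At the other end 18 of the 42 averaged less than 1 TPM, and all but 1 of the 12 mitotic and spindle genes were among them. In bulk RNA, fewer cells in cycle and less of an RNA in each cell cannot be told apart.

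**Figure D1:**
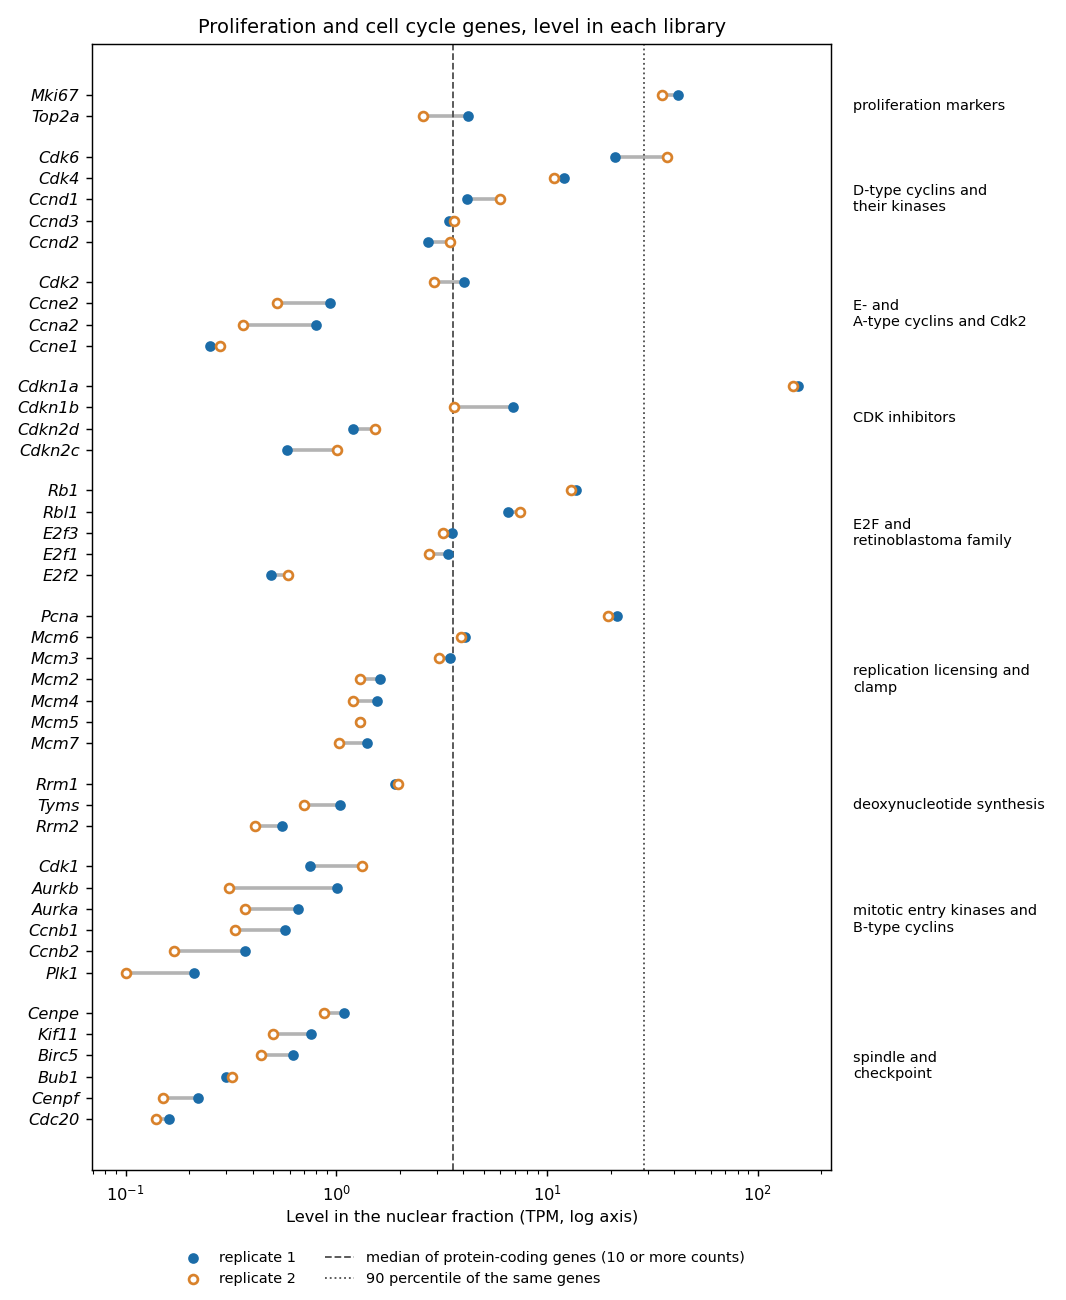
Level of each of the 42 genes in TPM (log axis) in replicate 1 (filled) and replicate 2 (open), grouped by role, with the median (dashed, 3.59 TPM) and 90 percentile (dotted, 28.7 TPM) of protein-coding genes. Cdkn1a is highest at 154 and 146 TPM, Mki67 follows at 41.7 and 35.1 TPM, and the mitotic and spindle genes lie at or below 1.32 TPM.

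Mki67 (ENSMUSG00000031004.8) encodes Ki-67, a coat protein of mitotic chromosomes and the usual marker of proliferating cells. The choice of genes named Mki67 for its high level, so its standing over the others is a description and not a test. The gene lies on chromosome 7 at chr7:135689784-135716361, minus strand, in mm10. It had 13328 counts and 41.7 TPM in replicate 1, and 11778 counts and 35.1 TPM in replicate 2, a mean of 38.4 ± 4.70 TPM (SD, n = 2). In both libraries it stood above every other S phase and mitotic gene examined, the nearest being Rfc2, a clamp loader subunit of the wider S phase list, at 26.9 and 32.9 TPM in replicates 1 and 2. Top2a, the DNA topoisomerase that untangles chromosomes and the other marker often used for cycling cells, had 409 counts and 4.21 TPM in replicate 1, and 266 counts and 2.58 TPM in replicate 2. Per length, Mki67 was thus 9.91 and 13.6 times Top2a in replicates 1 and 2, and 11.3 times by the mean level. These are the same genes whose windows above share the CCAAT box and TTTGAA.

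Mki67, named for its level in that choice, also exceeded the sum of the mitotic genes. The 12 mitotic entry and spindle genes summed to 6.72 TPM in replicate 1 and 5.02 TPM in replicate 2, so Mki67 stood at 6.21 and 6.99 times their sum. In the index-based table, which assigned reads through an index of transcripts, the 12 genes summed to 7.19 and 3.30 TPM in replicates 1 and 2, and Mki67 was 3.44 and 3.25 times that. In counts, Mki67 had 13328 and 11778, and the 12 genes had 618 and 496 in all. Its level was 81.7 times the median of a wider list of 30 G2 and mitosis genes. None of those 30 genes, and none of 30 wider S phase genes, reached the level of Mki67. Of the other 41 cell cycle genes only Cdkn1a had a higher mean level, although Cdk6 was higher than Mki67 in replicate 2 alone.

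The reads of Mki67 were assigned mostly to its long coding transcript. Mki67-201, with 10061 bases and 14 exons, held 97.8% and 99.6% of the gene's TPM in replicates 1 and 2 by the alignment-based table, and 87.4% and 82.1% by the index-based table. The remainder fell to Mki67-202, a short coding transcript of 575 bases. The annotation holds no other transcript of the gene, and both of these are coding, so no retained-intron share could arise.

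Cyclin-dependent kinase inhibitors were led by Cdkn1a, which encodes p21, a p53 target that arrests the cycle. Cdkn1a (chr17:29090976-29100727, plus strand) had 8226 counts and 154 TPM in replicate 1, and 7763 counts and 146 TPM in replicate 2, a mean of 150.4 ± 5.57 TPM (SD, n = 2). It was the highest of the 42 genes in both libraries, 3.92 times Mki67 by mean TPM. Cdkn1b, encoding p27, which holds cells in quiescence, had 755 counts and 6.85 TPM in replicate 1, and 441 counts and 3.62 TPM in replicate 2. Cdkn1a was 28.7 times Cdkn1b. The inhibitors of Cdk4 and Cdk6 were lower still: Cdkn2d (p19) averaged 1.36 ± 0.226 TPM and Cdkn2c (p18) 0.795 ± 0.304 TPM (SD, n = 2 each). An unclassified transcript on the opposite strand of Cdkn1a, AC167363.2, had 1102 counts in replicate 1 and 1639 in replicate 2. The sources used here do not say whether the counting used strand, so reads of overlapping genes on opposite strands cannot be told apart. This also touches Ccnd1, Ccnd3, Cdk4, Ccne2, Ccna2, Rb1, Mcm7 and Cdc20, which overlap expressed coding genes on the opposite strand.

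D-type cyclins and their kinases were present in both libraries with at least 100 counts each. Ccnd1 had 478 counts and 4.17 TPM in replicate 1, and 662 counts and 5.98 TPM in replicate 2. Ccnd3 and Ccnd2 averaged 3.52 ± 0.156 and 3.09 ± 0.523 TPM (SD, n = 2 each). These levels are less certain than the SDs show. The authors' credibility interval for Ccnd2 in replicate 2 ran from 3.32 to 48.3 TPM. For Ccnd3, the TPM of 3.41 and 3.63 lay below its intervals, 4.20 to 7.74 in replicate 1 and 4.48 to 7.20 in replicate 2. Other genes also lay outside theirs in both libraries, Mcm2 below and Mki67 and Cdkn1a slightly above. The intervals of Mki67 were 39.5 to 41.6 TPM in replicate 1 and 33.4 to 34.8 in replicate 2. Those of Cdkn1a were 146.1 to 152.7 TPM in replicate 1 and 138.6 to 145.3 in replicate 2. Summed, the 3 cyclins reached 10.3 TPM in replicate 1 and 13.1 TPM in replicate 2. Their kinase Cdk4 had 12.0 and 10.8 TPM in replicates 1 and 2. Cdk6, the partner kinase, had 4523 counts and 20.97 TPM in replicate 1, and 4626 counts and 37.1 TPM in replicate 2. By mean TPM, Cdk6 was 2.55 times Cdk4.

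The level of Cdk6 differed between the libraries although its counts hardly did. The authors' credibility intervals for its TPM did not overlap, at 19.0 to 22.6 in replicate 1 and 33.7 to 39.6 in replicate 2. Its long transcript Cdk6-202, of 11525 bases, held 4200 and 4092 counts in replicates 1 and 2 but 53.4% and 28.5% of the gene's TPM. Cdk6-203, a coding transcript of 697 bases, held 97.6 counts and 29.3% of the TPM in replicate 1, against 365 counts and 56.7% in replicate 2. The index-based table placed 23.3% and 48.2% of the gene's TPM in Cdk6-203. The deposited mean transcript length of the gene was 6721 bases in replicate 1 and 3836 in replicate 2.

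E- and A-type cyclins were lower than their kinase. Cdk2 had 299 counts and 4.02 TPM in replicate 1, and 237 counts and 2.89 TPM in replicate 2. Ccne2 and Ccne1, which start S phase with Cdk2, averaged 0.725 ± 0.290 and 0.265 ± 0.0212 TPM (SD, n = 2 each). Ccna2, the cyclin of S phase and G2, had 56 counts and 0.80 TPM in replicate 1, and 28 counts and 0.36 TPM in replicate 2. The D-type cyclins were thus each higher than Ccne1, Ccne2 and Ccna2 in both libraries.

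The retinoblastoma and E2F genes lay in the middle of the range. Rb1, the retinoblastoma protein that holds E2F in check, had 1615 counts and 13.7 TPM in replicate 1, and 1278 counts and 13.0 TPM in replicate 2. Its relative Rbl1 (p107) averaged 6.94 ± 0.644 TPM (SD, n = 2). Among the activating E2Fs, E2f3 averaged 3.37 ± 0.255 TPM, E2f1 3.08 ± 0.460 TPM and E2f2 0.54 ± 0.0707 TPM (SD, n = 2 each). Rb1 was higher than each E2F gene in both libraries, and E2f2 was the lowest of the family in both.

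In replication licensing and the clamp, Pcna stood apart from the helicase genes. Pcna, the sliding clamp of DNA polymerases, had 806 counts and 21.4 TPM in replicate 1, and 765 counts and 19.4 TPM in replicate 2. The 6 Mcm genes, subunits of 1 helicase ring, had a median of 1.41 TPM, and Pcna was 14.4 times that median. Within the ring the highest mean was 3.30 times the lowest, with Mcm6 at 3.995 ± 0.120 TPM, Mcm3 at 3.26 ± 0.276 TPM and Mcm7 at 1.21 ± 0.255 TPM (SD, n = 2 each). Mcm2, Mcm4 and Mcm5 were at or below 1.61 TPM in both libraries. Mcm6 and Mcm3 were above the other 4 Mcm genes in both libraries.

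Deoxynucleotide synthesis genes were low in the gene-level table. Rrm1, the large subunit of ribonucleotide reductase, had 201 counts in each library and averaged 1.93 ± 0.0354 TPM. Its S phase partner Rrm2 averaged 0.48 ± 0.0990 TPM (SD, n = 2 each). Tyms, thymidylate synthase, had 26 counts in replicate 1 and 46 in replicate 2.

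The mitotic and spindle genes had the lowest medians by role, 0.48 and 0.42 TPM. Among mitotic entry kinases and B-type cyclins, Cdk1 was highest by mean TPM with 0.75 and 1.32 TPM in replicates 1 and 2, though Aurkb had 1.01 TPM in replicate 1, and Plk1, the polo-like kinase, was lowest with 0.21 and 0.10 TPM. Aurora kinases Aurkb and Aurka averaged 0.66 ± 0.495 and 0.515 ± 0.205 TPM, and the cyclins Ccnb1 and Ccnb2 0.45 ± 0.170 and 0.27 ± 0.141 TPM (SD, n = 2 each). These 6 genes had 7 to 40 counts a library. Of the spindle and checkpoint genes, Cenpe, a kinetochore motor, had 232 and 230 counts in replicates 1 and 2, or 1.09 and 0.87 TPM. Kif11, the motor that separates spindle poles, had 114 and 77 counts, or 0.76 and 0.50 TPM. The survivin gene Birc5 averaged 0.53 ± 0.127 TPM, the checkpoint kinase gene Bub1 0.31 ± 0.0141 TPM and the kinetochore gene Cenpf 0.185 ± 0.0495 TPM (SD, n = 2 each). Cdc20, which activates the anaphase-promoting complex, had 4 and 2 counts and was the lowest of all 42 by mean TPM.

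Other genes of the same processes were taken from lists chosen by name. Of 30 wider S phase genes, 4 were above the protein-coding median, and their median was 0.948 TPM. The highest were Rfc2 (29.9 ± 4.24 TPM), Tk1 (6.78 ± 2.06 TPM), thymidine kinase, and Slbp (4.98 ± 0.608 TPM), which binds histone messages. The lowest with 10 or more counts were Ung and Rfc4 at 0.10 and 0.33 TPM. Of 30 wider G2 and mitosis genes, 4 were above the protein-coding median, and their median was 0.47 TPM. Pttg1 (12.8 ± 1.41 TPM), encoding securin, Mad2l1 (11.0 ± 0.750 TPM), a spindle checkpoint gene, and Incenp (7.83 ± 0.417 TPM), of the chromosomal passenger complex, were highest. Among those with 10 or more counts the mitotic kinesin genes Kif2c and Kif20a were lowest at 0.12 TPM each, and Cdc25c and Ube2c had fewer counts (each ± is an SD, n = 2).

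The lists of regulators and of p53 targets had higher medians. Of 18 cell cycle transcription factors and subunits of the DREAM and MuvB complexes, which repress or activate these promoters, 7 were above the protein-coding median and the list's median was 2.58 TPM. Max, the partner of Myc, had 26.2 and 27.2 TPM in replicates 1 and 2, and Rbbp4 and Rbl2 averaged 6.29 ± 0.0354 and 6.12 ± 1.60 TPM, while E2f7 and Tfdp2 were lowest among those with 10 or more counts at 0.35 and 0.69 TPM, and Mycn was at 0 in both libraries. Of 14 ubiquitin ligase genes of the cycle, 9 were above it, with a median of 5.64 TPM. Anapc1 and Anapc2 of the anaphase-promoting complex averaged 17.8 ± 0.0566 and 9.16 ± 0.983 TPM, and the scaffold Cul1 11.2 ± 2.09 TPM, while the inhibitor Fbxo5 and the cyclin Ccnf were lowest at 0.36 and 1.04 TPM. Of 14 p53 target genes other than Cdkn1a, 11 were above it and 4 above the 90 percentile, with a median of 8.15 TPM. Plk2 had 197 and 245 TPM in replicates 1 and 2, Mdm2, the ligase of p53, 214 and 224 TPM, and Gdf15, a stress cytokine, 88.0 and 204 TPM. Phlda3 and Zmat3 were lowest among those with 10 or more counts at 1.73 and 2.86 TPM, and Eda2r, with fewer, averaged 0.035 TPM. Of 8 ubiquitous genes given for scale, such as Actb and Ppia, 7 were above the protein-coding median, and Hprt and Tbp were lowest at 9.85 and 3.0 TPM.

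**Figure D2:**
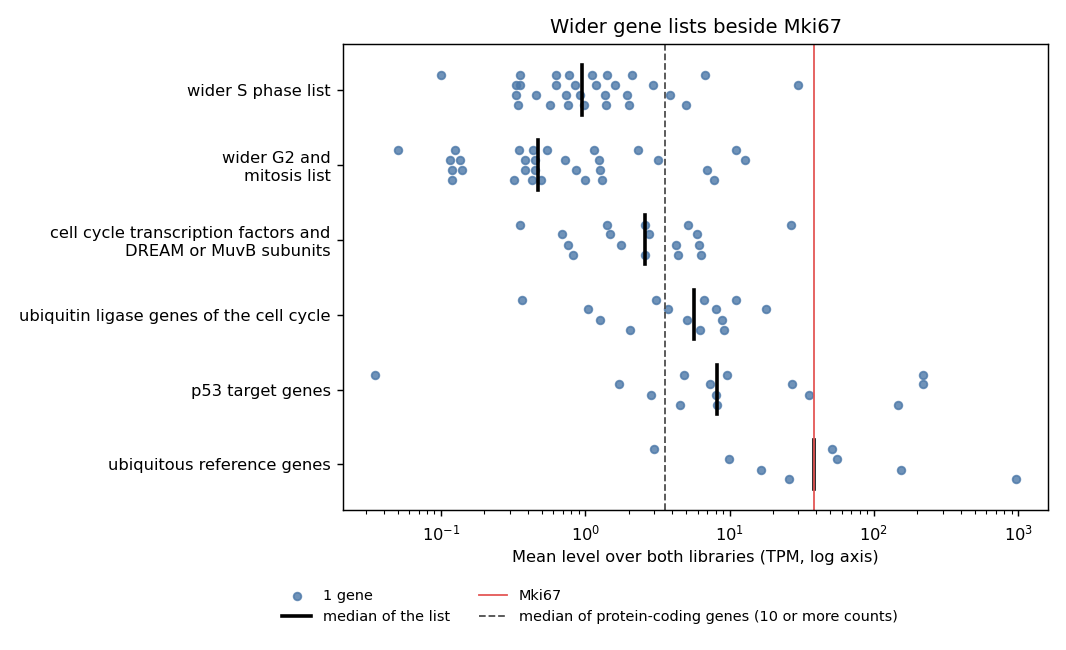
Mean level over both libraries (TPM, log axis) of each gene of 6 wider lists (points; the 1 gene at 0 is not drawn), with each list's median (black bar), Mki67 (red line, 38.4 TPM) and the median of protein-coding genes (dashed). No wider S phase or G2 and mitosis gene reaches the Mki67 line, and 3 p53 target genes lie beyond it.

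The libraries were then compared gene by gene, as the ratio of replicate 1 over replicate 2 with TMM library sizes. Each group was 1 library, so a ratio has a 95% counting interval (exact Clopper-Pearson, covering counting error only) and no replicate test. Of the 21 cell cycle genes with at least 100 counts in both libraries, 0 were 2-fold or more higher in replicate 1 and 0 were 2-fold or more lower, where 0.428% and 1.56% of all 8641 such genes were. Past 1.5-fold, Cdkn1b (log2 ratio 0.84, interval 0.67 to 1.01) and Top2a (0.69, 0.46 to 0.91) were higher in replicate 1 and none were lower, where 4.15% of all such genes were higher and 6.79% lower. Those 2 genes aside, the scaled counts of the better-measured cell cycle genes differed between the libraries by less than 1.5-fold. In TPM, Cdk6 differed by more, at 20.97 in replicate 1 and 37.1 in replicate 2, as given above.

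The weakly measured genes spread further. Over the 41 genes that summed to at least 10 counts, 3 were 2-fold or more higher in replicate 1 and 0 lower, where 3.58% and 7.09% of all 16140 such genes were. They were Ccna2 (log2 ratio 1.05, interval 0.39 to 1.78), Ccnb2 (1.02, -0.24 to 2.50) and Plk1 (1.02, -0.34 to 2.62), with 7 to 56 counts a library. The counting interval lay above 0 for 12 genes and below 0 for 4, where it did so for 21.9% and 22.6% of all genes. With library totals in place of TMM sizes these numbers were 17 and 2. TMM sizes shift every log2 ratio by -0.078 against library totals. The shares over all genes would thus move as well, and they were not counted with library totals. The median log2 ratio was 0.16 for the cell cycle genes and 0.03 for protein-coding genes, and 29 of 41 were above 0, where 52.4% of protein-coding genes were. By index-based counts the lean was smaller, with 24 of the 41 above 0 and a median of 0.09. The index-based median over all genes that summed to at least 10 counts was -0.05. The share of protein-coding genes above 0 by index-based counts is not given here.

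By role, the median log2 ratio was 0.69 for mitotic entry genes and 0.63 for spindle genes, with 5 of 6 and 5 of 5 above 0. In the index-based table these medians were 0.32 and 0.30, with 4 genes above 0 in each group. The counting interval lay above 0 for 0 of the 6 mitotic entry genes and for 2 of the spindle genes, Cenpf and Kif11. The 5 D-type cyclins and kinases had a median of -0.18, with 1 of 5 above 0, or 2 of 5 when library totals replaced the TMM sizes. Ccnd1 (-0.40, interval -0.58 to -0.23) was lower in replicate 1 beyond counting error. Ccnd2 (-0.18, -0.36 to -0.01) was so with TMM sizes but not with library totals, where its interval ran from -0.28 to 0.07. Mki67 was higher in replicate 1 by a log2 ratio of 0.24 (0.21 to 0.28) and Cdkn1a by 0.15 (0.10 to 0.19). In the index-based table the ratios were smaller, 0.11 for Mki67 and 0.05 for Cdkn1a, below those intervals. Of the wider lists, Tpx2, an activator of Aurora A, was past 2-fold with 119 counts in replicate 1 and 300 in replicate 2 (log2 ratio -1.26, -1.59 to -0.96), below 0 where 5 of the 6 mitotic entry genes were above it. Gdf15 was past it as well, with 3444 and 8471 counts (-1.23, -1.29 to -1.18). The 2 libraries also differ in RNA input, and whether input, culture or library preparation bears on these ratios was not tested.

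**Figure D3:**
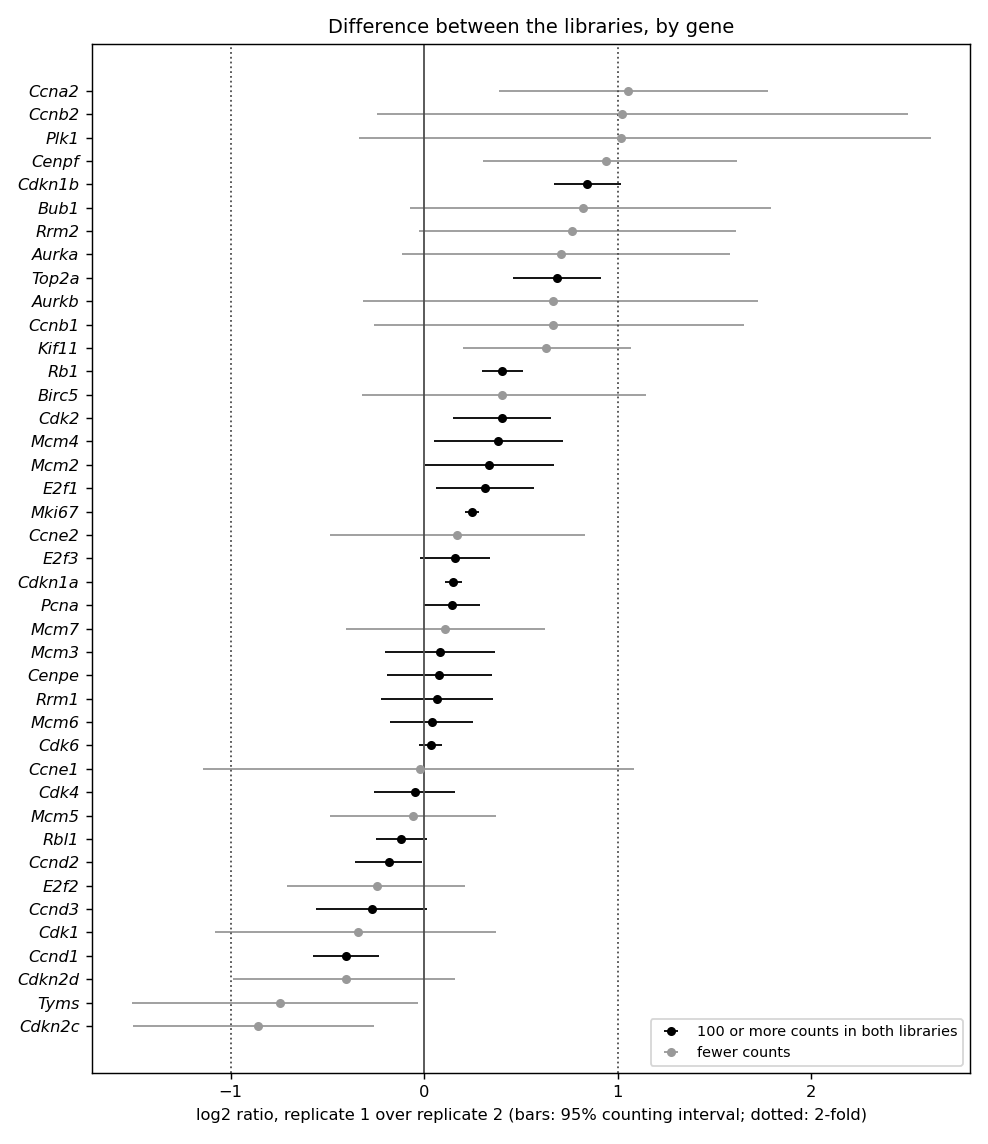
Log2 ratio of replicate 1 over replicate 2 for the 41 genes that summed to at least 10 counts, with 95% counting intervals, in black where both libraries had 100 or more counts. Cdkn1b (0.84) and Top2a (0.69) are the highest of the black points and all black points lie within 2-fold (dotted lines), while the grey points have wide intervals.

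Since the RNA was nuclear, the share of each gene's TPM assigned to annotated retained-intron transcripts was examined. Of the 21 genes with at least 100 counts in both libraries, 7 had 10% or more in such transcripts in both libraries, where 45.6% of 7845 protein-coding genes with those counts did. These were Cdk4, Cdk2, Mcm3, Rb1, Pcna, Ccnd2 and Rbl1. Of the 21, 14 have an annotated retained-intron transcript, and their median share was 15.6%, against 21.4% over protein-coding genes that have one.

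Cdk4 had the largest share in the alignment-based table, 65.9% in replicate 1 and 64.4% in replicate 2. The index-based table gave Cdk4 63.7% and 65.9%, and it gave Rrm1 62.3% and 70.6%, where the alignment-based table gave Rrm1 21.1% and 6.70%. Most of it was Cdk4-209, a transcript of 468 bases and 2 exons that held 50.6% and 39.4% of the gene's TPM but only 50.6 and 40.7 counts. The full coding transcript Cdk4-201 held 199.7 and 183 counts. Cdk2 had 39.5% and 42.6%, mainly in 2 transcripts of which Cdk2-204 held 22.1% and 17.3%, and Mcm3 had 42.8% and 36.1%. Rb1 had 23.4% and 32.1%, of which Rb1-204 held 21.3% and 21.1%. Pcna had 25.5% and 25.9%, in Pcna-204 and Pcna-202. Ccnd2-208 held 18.4% and 24.9% of Ccnd2, and the shares of Rbl1 were 13.9% and 20.7%. A share in TPM weights short transcripts more than a share in counts does. Mki67, Cdkn1b, E2f1, E2f3 and Mcm4 had 100% of their TPM in coding transcripts in both libraries. For Mki67, Cdkn1b, E2f1 and Mcm4 only coding transcripts are annotated, so this share was fixed by the annotation. For E2f3, which has no annotated retained-intron transcript, the index-based table gave 64.3% and 41.2% in coding transcripts.

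**Figure D4:**
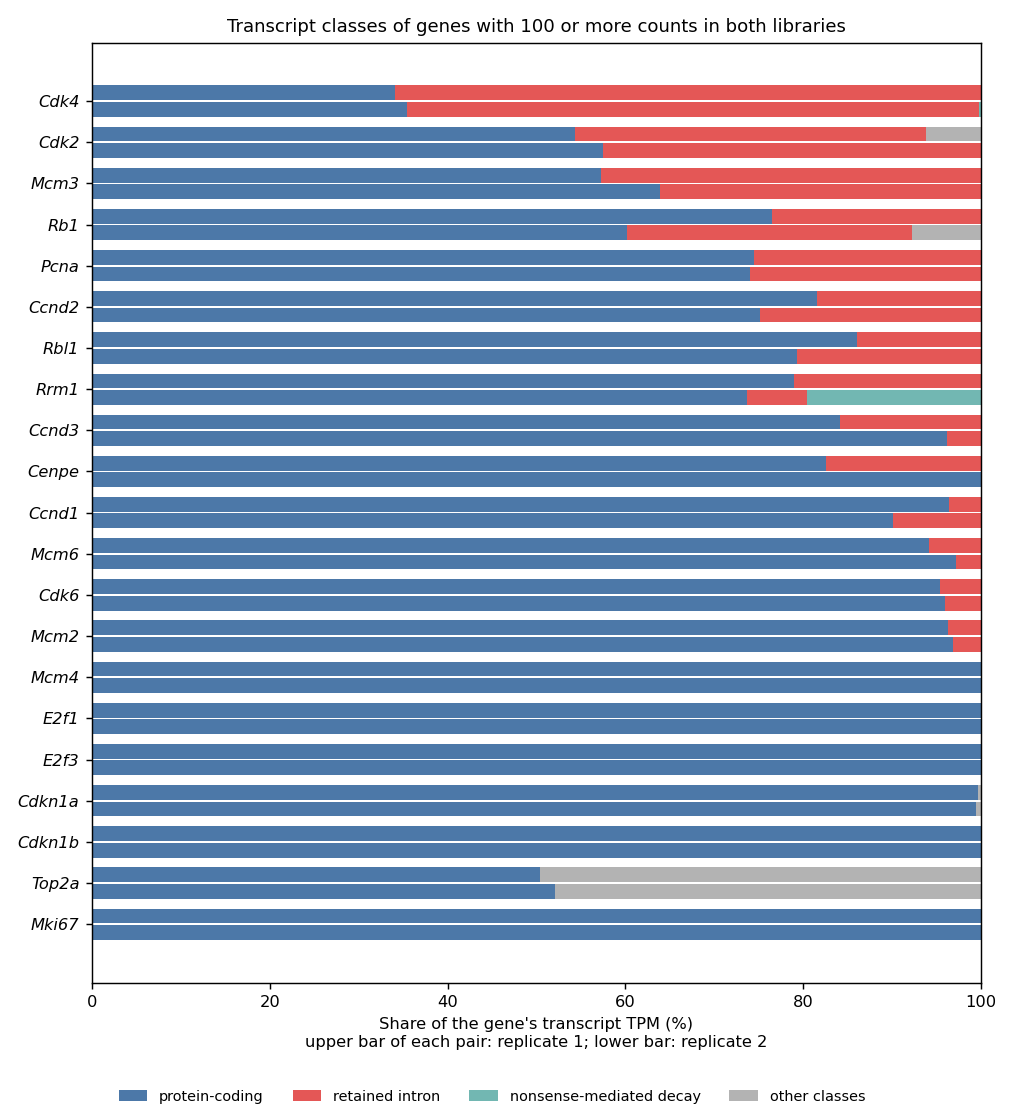
Share of each gene's transcript TPM (%) by annotated transcript class for the 21 genes with at least 100 counts in each library, replicate 1 above replicate 2. Cdk4 has 65.9% and 64.4% in retained-intron transcripts, Mki67 has no such transcript annotated, and Top2a has 49.6% and 47.9% in other classes.

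For 3 genes the index-based table gave far more counts. Its counts were 1.60 and 1.28 times the gene-level counts for the median gene in replicates 1 and 2. Tyms had 519 and 441 index-based counts against 26 and 46 gene-level counts, or 20.0 and 9.59 times as many. Birc5 had 297 and 256 against 38 and 30, or 7.82 and 8.53 times. Cdk1 had 131 and 140 against 30 and 40, or 4.37 and 3.50 times. These 3, of 39 with at least 10 counts in each library, were 2-fold or more above the median gene in both, where 5.57% of 11093 genes were, so the number of such genes was near that background.

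In each of these genes a single transcript held most of the index-based counts. Tyms-201, a coding transcript of 3163 bases, held 451 and 339 index-based counts in replicates 1 and 2 and 0 counts in the alignment-based table. Birc5-202, of 3334 bases, held 291 and 256 index-based counts, against 29.9 and 24.6 in the alignment-based table. For Cdk1, Cdk1-207, a coding transcript of 695 bases, held 73.5 and 87.8, against 0 and 2.0. The reason for the difference between the tables was not tested, so the levels of Tyms, Birc5 and Cdk1 are uncertain.

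**Figure D5:**
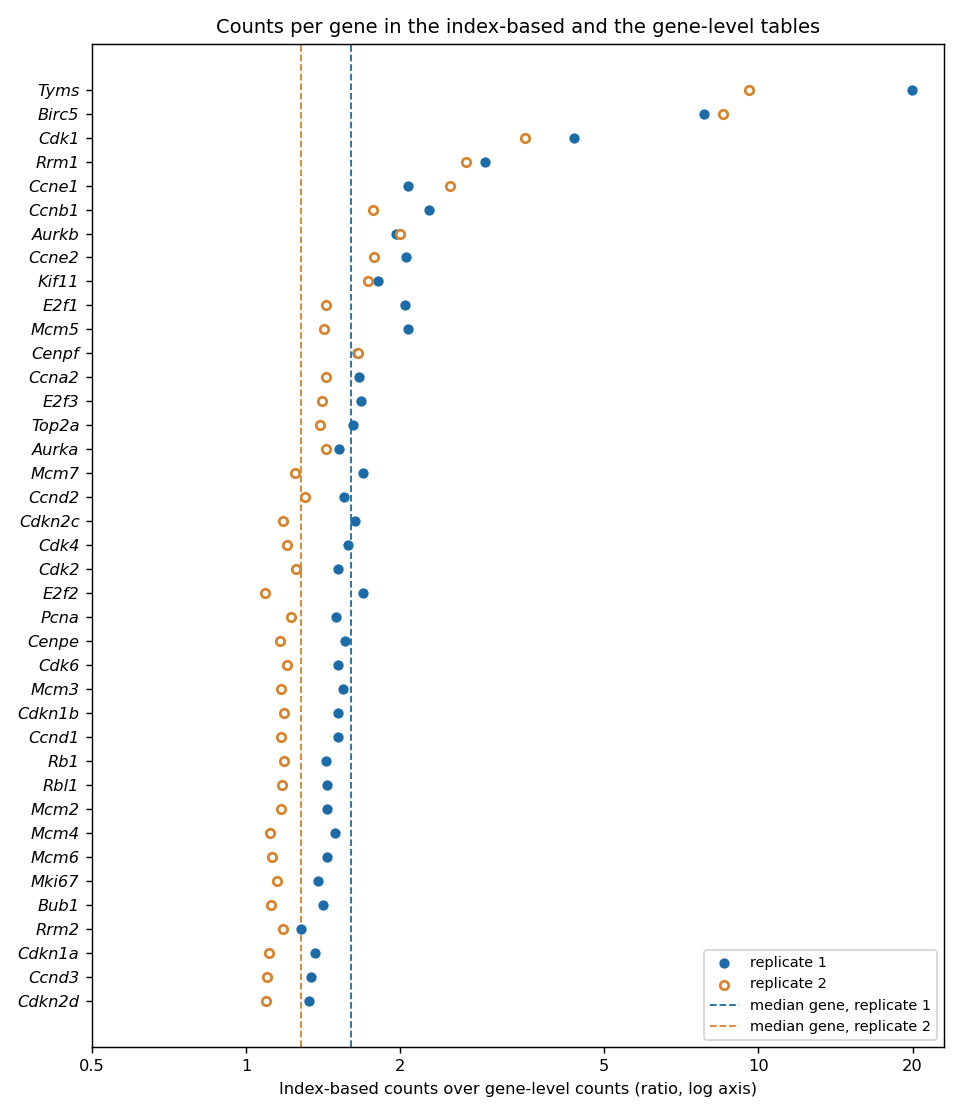
Ratio of index-based to gene-level counts (log axis) for the 39 genes with at least 10 counts in each library, in replicate 1 (filled) and replicate 2 (open), with the median over all such genes (dashed, 1.60 and 1.28). Tyms, Birc5 and Cdk1 stand apart at the top, with ratios of 3.50 to 20.0.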

How the data were processed

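Total RNA of the nuclear fraction was measured in 2 libraries of 1 group. Per the file headers and the deposited description of the files, the authors used mm10 with GENCODE M21 and kept replicates apart. The sources used here do not give the aligner, the quantifiers, their versions or the strand setting. The authors deposited expected (estimated) counts and TPM per gene and per transcript from transcriptome alignments, the percent of a gene's TPM held by each transcript, and estimated counts and TPM per transcript from a transcript index. The deposited gene table also gives a signal-like pair of bounds, the credibility interval of TPM.

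Levels are deposited TPM, given as the mean ± SD of 2 libraries. Between libraries, estimated counts were rounded to whole numbers, 0.5 was added, and ratios were scaled with TMM (edgeR 4.0.16, R 4.3.3) over 16140 genes that summed to at least 10 counts. DESeq2 1.42.0 size factors, library totals, other count minimums and the index-based table were alternatives. With 1 group no dispersion test could be made. Intervals are exact 95% Clopper-Pearson and cover counting error only. The computations ran in Python 3.11.15 and were tested on simulated data. Motifs were matched exactly in RefSeq promoter windows of GRCm38.p6. All 42 genes are reported. Of each wider list, the 3 highest and 2 lowest genes and those past 2-fold between libraries are named, except 1 gene that is not reported here. The genes and lists were chosen with earlier results of these data known.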

Additional observations from a re-analysis of the deposited data

How the results depend on the processing

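No paired analysis was possible because both samples belong to 1 group. The median of the 42 genes was 0.747 TPM in the index-based table and 6.18 TPM when TPM was rescaled over protein-coding genes, against 1.33 TPM as reported; each library alone gave 1.35 and 1.30 TPM. Without a count minimum, which adds protein-coding genes with few or no counts to the median, 39 of the 42 (reported 10) stood above the median, with 29, 23, 17 and 14 genes of the S phase, G2 and mitosis, transcription factor and ubiquitin ligase lists (reported 4, 4, 7 and 9). With 10 counts in both libraries, 1 of 39 cell cycle genes was 2-fold higher in replicate 1 (reported 0 of 21). Among all genes 226 were higher and 499 lower (reported 37 and 135 of 8641). Past 1.5-fold there were 2 of 21 cell cycle genes, among 359 higher (4.15%) and 587 lower (6.79%) of 8641. The index-based table gave 150 genes 2-fold higher and 232 lower. The totals of all genes under the lower minimum and in the index-based table are not given here, so those counts form no share. Ccnb2 turned round to a log2 ratio of -0.50 in the index-based table, and the cause was not tested; 25 other ratios of the 41 and 8 of 9 role medians moved by 0.1 or more there. With 10 counts in both, 12 of 39 genes (reported 7 of 21) had 10% or more in retained-intron transcripts. The share of other genes was not counted at that minimum. In replicate 1 alone 10 of the 21 did, and in replicate 2 alone 7, where 3763 and 4011 of 7845 protein-coding genes did. TTTGAA alone was in 12 promoters and TTTAAA alone in 10 (reported 19 with either). Over protein-coding genes with counts, a background added after seeing the data, the CCAAT box was in 43.2%, TTTGAA or TTTAAA in 22.7% and an E2F-type motif in 4.02%. Mki67 stayed 9.91 to 13.6 times Top2a in either library and was 9.11 times it in the index-based table. Under library totals, DESeq2 size factors and counts with nothing added, all 41 log2 ratios moved by less than 0.1, though Cdk4, Ccne1 and Mcm5, near 0, changed sign under library totals. A change of library sizes shifts every ratio by the same amount, -0.078 for TMM against library totals. The 41 ratios thus moved together there and are not separate checks. Counts under 100 limit 21 of the 42 genes.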
